A study of Sus scrofa with 4 samples.

Results

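The contractile genes of smooth muscle and myofibroblasts were examined in the open chromatin of porcine fetal fibroblasts (PFFs). They were 8 genes of 19550 protein-coding gene models on the placed chromosomes: ACTA2, TAGLN, CNN1, MYL9, MYH11, TPM1, TPM2 and VIM. A peak belonged to a gene when it overlapped the RefSeq gene model (Sscrofa11.1) with 20 kb added on both sides, here called the window. The windows held 54 of 96367 peaks in BRG1 1, 52 of 90851 in BRG1 4, 59 of 107475 in control 1 and 58 of 105954 in control 4.

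Open chromatin was mapped by ATAC-seq, which uses the Tn5 transposase to tag accessible DNA, in cells with and without over-expressed BRG1. BRG1 is an ATPase subunit of the BAF chromatin remodelling complex. The cells labelled BRG1-overexpressed carried pTK-642-BRG1 (libraries BRG1 1 and BRG1 4), and the cells labelled WT carried the vector pTK-642 (libraries control 1 and control 4). All 4 libraries came from fibroblasts of skin under serum starvation. Whether the libraries of a group were grown as separate cultures is not in the labels, so a p-value covers the spread among these samples alone, which may be technical. In a bulk assay, a region open in fewer cells and a region less open in each cell cannot be told apart.

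Contractile cells pull on their surroundings by sliding myosin II along actin filaments, while tropomyosin, calponin and transgelin bind the filaments. Many of these genes are switched on by serum response factor (SRF) with its partners of the myocardin family. Fibroblasts that take on this programme, with stress fibres of smooth muscle alpha-actin, are called myofibroblasts and are known from wound healing and fibrosis.

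BRG1 4 stood apart from the other libraries in peak width, with a median of 541 bp, against 404 bp in BRG1 1, 403 bp in control 1 and 396 bp in control 4. Relative depth, read from the lowest background of each list, was 81.2% of control 1 in BRG1 1, 92.6% in BRG1 4 and 93.5% in control 4. At most 0.202% of intervals were identical between any 2 lists, so each list held its own set of intervals. That share cannot tell whether libraries came from the same culture. The rank of a peak is given as the percentile of its −log10 p-value, which the authors' caller assigned, among the peaks of the same list, with 100 the highest. A peak less than 1 kb away from either end of a gene model is called an end peak from here on. Of 11 fibroblast markers, 9 had an end peak in every library. DCN had none in any library and FN1 had one in BRG1 1 alone. Of 10 smooth muscle markers, 4 of them among the 8 genes, 8 had an end peak in every library, as did 1 of 5 keratinocyte and epithelial markers, 2 of 6 endothelial and 3 of 5 skeletal muscle markers. Of the markers of other cell types reported here, immune markers included, SPI1 and CD14 had the highest ranks, at percentiles of 90.0 to 94.7 and 90.9 to 94.8 over the libraries, and the part of other cells in the results was not tested. Others with an end peak in every library were EPCAM (5.6 to 25.6), KDR (23.7 to 53.9), ERG (47.4 to 68.7), CD3E (50.5 to 67.2), LCP1 (78.3 to 83.2), MLANA (52.3 to 56.8) and, of skeletal muscle, MYOD1 (74.6 to 80.6), MYF6 (3.6 to 59.6) and ACTA1 (64.9 to 82.2). No end peak was called in any library at KRT5, CDH1, GRHL2, TP63, PECAM1, CDH5, TEK, TIE1, PTPRC, SOX10, TYR or MYF5. Over all genes, 68.2% had an end peak in every library and 25.8% had none.

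The windows of the 8 genes held 62 regions once overlapping peaks of the 4 libraries were merged. Of these, 40 (64.5%) held a peak of every library, against 61.8% of all 121788 regions. No region was called in both BRG1 libraries and neither control, which 0.741% of all regions were, and none was called in both controls and neither BRG1 library, which 4.41% were. These counts of 0 do not show that the groups were alike. Leaving out 1 library lowers the number that must share a call. The count in BRG1 and not in control was then 6 without BRG1 1, 0 without BRG1 4, 2 without control 1 and 2 without control 4. The reverse count was 5, 2, 2 and 2 in the same order of libraries left out.

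The 22 regions not shared by all libraries were mostly of low rank. The lists differ in length, so the percentiles of single regions given gene by gene describe each library within its own list, and counts of regions that rank higher or lower in a group come from lists of equal length. The 10 regions called in 1 library had percentiles from 1.3 to 9.9. BRG1 4 alone accounted for 6 of them, or 9.68% of the 62 regions, against 3.49% of all regions, while control 1 had 2, control 4 had 2 and BRG1 1 had none. A further 5 regions were called in every library but BRG1 4 (8.06%, against 6.39% of all regions). Among the 22 regions, 1 reached a mean percentile of 50, a region beside VIM described below, as did 32 of the 40 shared regions. Most shared regions lay at the same place in each library, with a median distance of 36.5 bp between the outermost of the 4 summits. In 5 of the 40 the distance was above 100 bp. It was 705 bp in a body region and 473 bp at the lower-coordinate end of MYH11, 499 bp in the ACTA2 body and 351 bp at the higher-coordinate end of VIM. In such regions the ranks of the libraries can belong to peaks at different places.

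**Figure D1:**
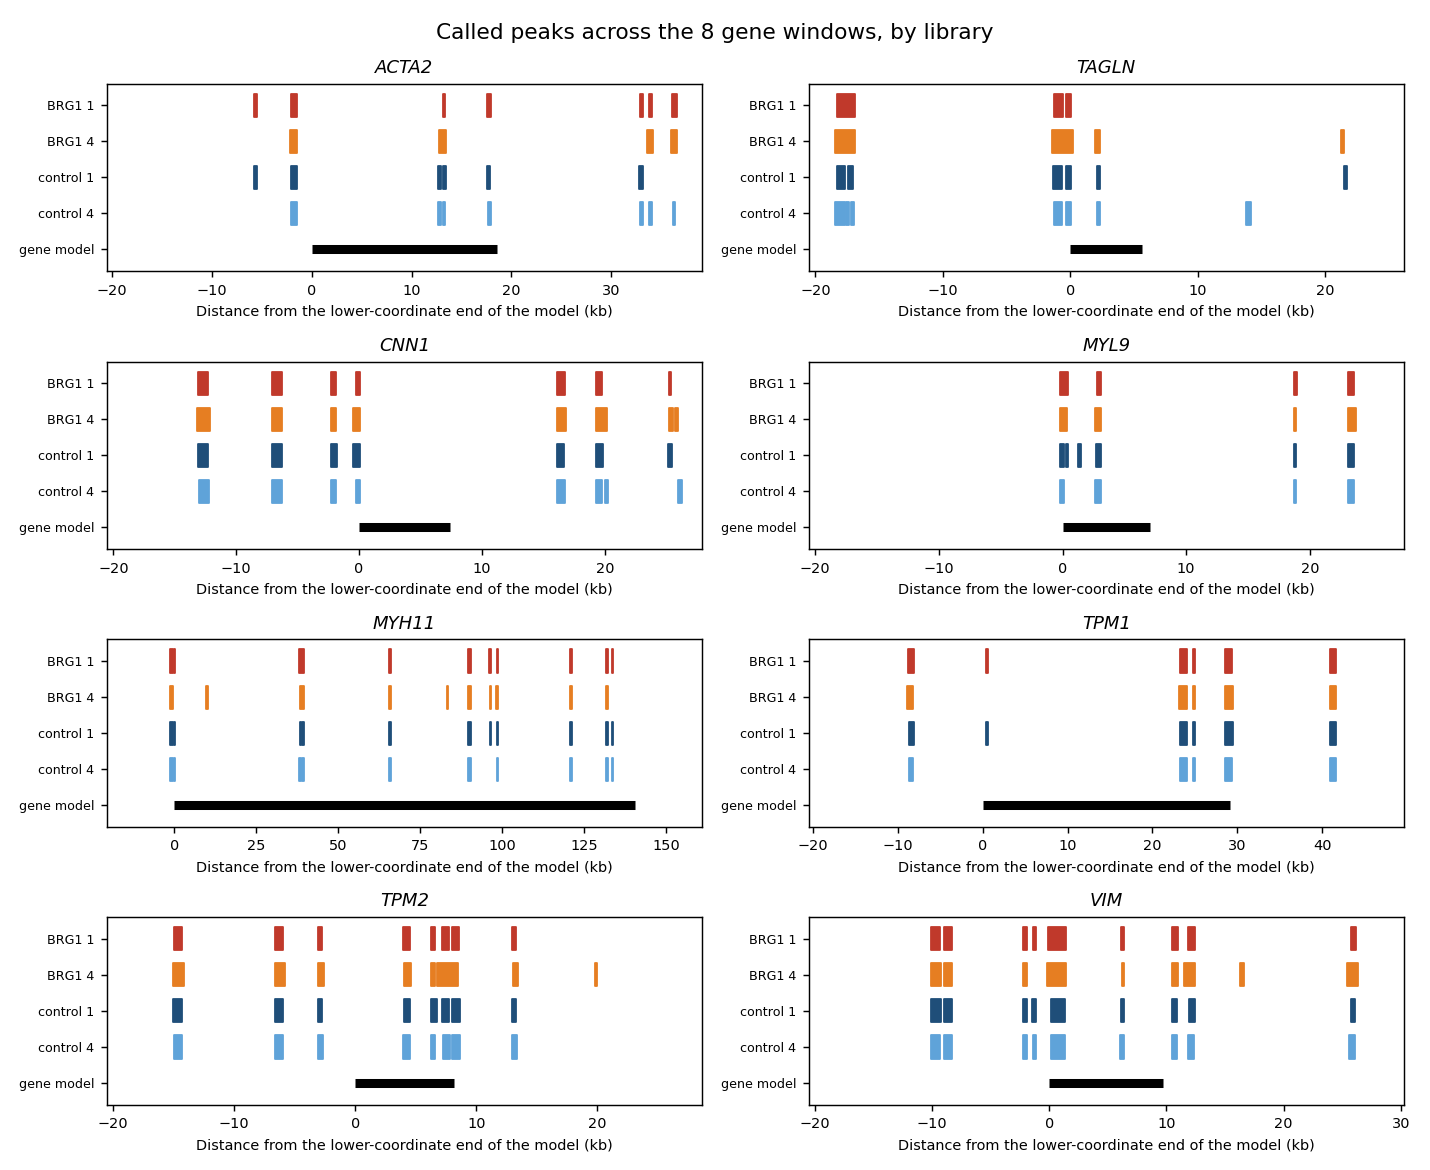
Called peaks in the windows of the 8 genes, 1 panel a gene, with 1 row a library (bars run from peak start to peak end) and the gene model as a black bar. The x axis is the distance in kb from the lower-coordinate end of the model. Most bars line up over all 4 rows, and those present in 1 row alone were of low rank.

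Peak numbers in the windows were 54 in BRG1 1 and 52 in BRG1 4, against 59 in control 1 and 58 in control 4. Both BRG1 libraries lay below both controls, and the mean was 53.0 ± 1.41 in BRG1 libraries, against 58.5 ± 0.707 in controls (SD over 2 libraries; ratio 0.906, two-sided exact permutation p = 0.33, the smallest p that 2 against 2 can give). The length of the lists had the same order. Per 10000 peaks of the same list the windows held 5.60 in BRG1 1 and 5.72 in BRG1 4, against 5.49 in control 1 and 5.47 in control 4 (difference 0.182, exact permutation p = 0.33). That small difference turned to −0.0550 with the same number of top-ranked peaks in every list. The windows then held 52 peaks in BRG1 1 and 52 in BRG1 4, against 54 in control 1 and 51 in control 4. The groups thus overlapped in peak number once the lists had the same length.

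The length under peaks did not have that order. It was 29269 bp in BRG1 1 and 35751 bp in BRG1 4, against 29719 bp in control 1 and 28626 bp in control 4, so that BRG1 4 was high and the other 3 were close together. The ratio of means was 1.11 (exact permutation p = 0.67) and 1.003 without BRG1 4.

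By their median, the 8 genes lay in denser neighbourhoods than all genes. Their median was 6.75 peaks a window, averaged over libraries, against 5 for all protein-coding genes, and 10.6 against 6.55 peaks per 100 kb of window. VIM had the densest window, with 18.1 peaks per 100 kb. MYH11, the longest gene, had the sparsest, with 5.7, below the median of all genes. TAGLN was the 1 gene of 8 (12.5%) with fewer peaks in both BRG1 libraries than in both controls, against 19.0% of all gene windows. None had more in both BRG1 libraries, against 1.29% of all windows. TPM2 with 8 peaks and VIM with 9 had the same number in all 4 libraries, which 21.0% of all windows did. The peaks were not all the same ones, since BRG1 4 alone had a weak peak in each of these windows, at percentile 1.5. Length under peaks was higher in both BRG1 libraries in 3 windows (37.5%), those of ACTA2, TPM1 and VIM, against 13.4% of all windows, and lower in both in none, against 13.6%. ACTA2 had 2468 bp in BRG1 1 and 2666 bp in BRG1 4, against 2121 bp in control 1 and 2229 bp in control 4. TPM1 had 3616 and 3597 bp in BRG1 1 and BRG1 4, against 3587 and 3007 bp in control 1 and control 4, and VIM had 5298 and 6248 bp, against 4905 and 5074 bp. At TPM1 the gap between the groups was small, with 3597 bp in the lower BRG1 library and 3587 bp in the higher control. The wider peaks of BRG1 4 move with this order, and their part in it was not tested.

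**Figure D2:**
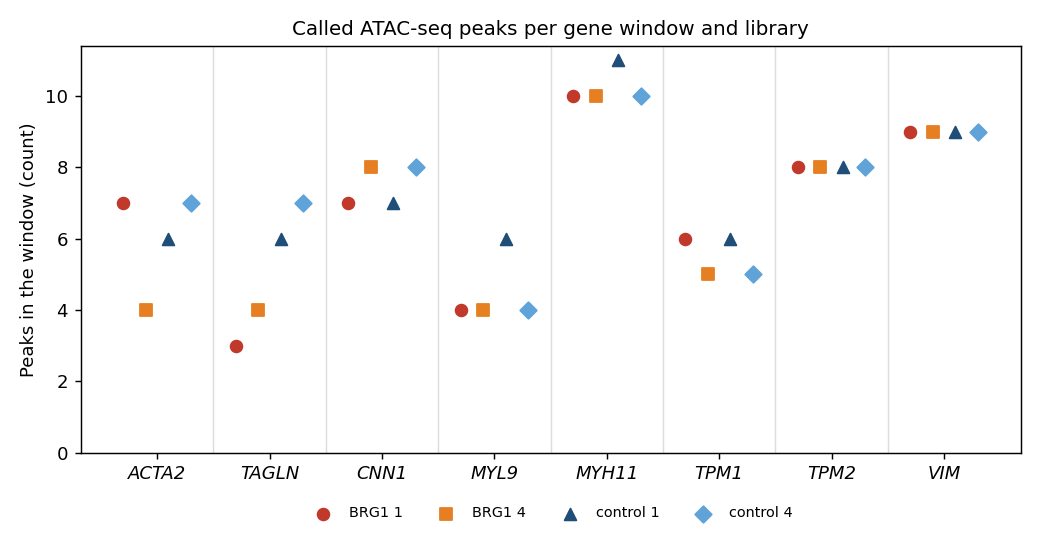
Number of called peaks (y axis) in the window of each gene (x axis), 1 point a library, with the BRG1 libraries left of the controls. TAGLN, with 3 and 4 in BRG1 against 6 and 7 in control libraries, is the gene whose groups do not overlap, and the points of TPM2 and VIM are level.

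ACTA2 encodes smooth muscle alpha-actin, the defining actin of myofibroblasts. It lies on chromosome 14 from 100868145 to 100886732. Its window held 7 peaks in BRG1 1 and 4 in BRG1 4, against 6 in control 1 and 7 in control 4, so that the groups overlapped and BRG1 4 was low. It had the lowest ranks of the 8 genes: its highest region, 100865926 to 100866699, had percentiles of 62.6 in BRG1 1 and 54.2 in BRG1 4, against 69.6 in control 1 and 62.9 in control 4. That region lay outside the model and more than 1 kb from its lower-coordinate end.

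The ends of ACTA2 themselves were barely called. The 1 end region, 100885671 to 100886097 at the higher-coordinate end, had percentiles of 13.8 in BRG1 1, 16.2 in control 1 and 3.2 in control 4, and no peak was called there in BRG1 4. ACTA2 was thus the 1 gene of 8 without an end peak in every library. The other 7 (87.5%, against 68.2% of all genes) had one. A region in the gene body, 100880774 to 100881602, was narrow in BRG1 1 (208 bp) and wide in BRG1 4 (720 bp), while each control held a pair of peaks there. Its highest peak had percentiles of 6.8 in BRG1 1 and 13.0 in BRG1 4, against 53.5 in control 1 and 41.6 in control 4. The stronger control peak, with its summit at 100880953 in control 1 and 100880941 in control 4, was not called as a separate peak in either BRG1 library. The wide peak of BRG1 4 covered both places, with its summit at 100881440, and the summit of BRG1 1 was at 100881409. Both lay beside the weaker control peak, whose summit was at 100881450 in each control. That weaker peak had percentiles of 23.5 in control 1 and 4.5 in control 4, which overlapped those of the BRG1 libraries.

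TAGLN encodes transgelin, or SM22, an actin-binding protein of smooth muscle. It lies on chromosome 9 from 44561756 to 44567385. Its window held 3 peaks in BRG1 1 and 4 in BRG1 4, against 6 in control 1 and 7 in control 4, so that the groups did not overlap (BRG1 minus control, −3.00 peaks). Length under peaks did overlap between groups, at 2573 bp in BRG1 1 and 3750 bp in BRG1 4, against 2517 bp in control 1 and 2916 bp in control 4.

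Part of the gap in peak number at TAGLN was how regions were split into peaks. The region from 44543259 to 44544883, at the end of SIDT2, was 1 peak in each BRG1 library (1435 bp in BRG1 1 and 1610 bp in BRG1 4), but 2 peaks in control 1 and 3 in control 4. The lower-coordinate end of TAGLN, described next, was 1 peak in BRG1 4 and 2 in each of the other libraries. The remaining regions of the window, one in the gene body and the others in PCSK7, were of low rank, at percentiles from 1.3 to 19.6. With lists of equal length the window held 3 and 4 peaks in BRG1 and 4 in each control library, and the gap was −0.50 peaks.

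The region at the lower-coordinate end of TAGLN, 44560348 to 44561953, ranked high in all libraries, at percentiles of 91.5 in BRG1 1 and 84.0 in BRG1 4, against 90.9 in control 1 and 91.3 in control 4. BRG1 4 covered it with 1 peak of 1606 bp, where each of the other libraries had 2. In those libraries the second peak had its summit just outside the model, at 44561593 in BRG1 1, 44561595 in control 1 and 44561596 in control 4, with percentiles of 72.2, 79.1 and 80.6. An end of SIDT2 was also less than 1 kb away. A peak inside the model, 44563725 to 44564111, was called in BRG1 4, control 1 and control 4 at percentiles of 11.2, 19.6 and 17.2, and not in BRG1 1.

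CNN1 encodes calponin 1, which binds actin and restrains actomyosin in smooth muscle. It lies on chromosome 2 from 70183370 to 70190756, and its window held 7 peaks in BRG1 1, 8 in BRG1 4, 7 in control 1 and 8 in control 4. The region at its lower-coordinate end, 70182835 to 70183469, had percentiles of 50.8 in BRG1 1 and 48.6 in BRG1 4, against 59.3 in control 1 and 68.0 in control 4. All 4 summits lay within 20 bp of each other. The highest region of the window, at percentiles of 97.8, 96.0, 98.5 and 98.2 in BRG1 1, BRG1 4, control 1 and control 4, lay at the end of the neighbouring gene ECSIT. Between ECSIT and CNN1 lay a pair of regions outside any gene model and called in every library. That from 70176252 to 70177133 had percentiles from 91.5 to 93.7, and that from 70181047 to 70181555 had 80.6 in BRG1 1 and 59.3 in BRG1 4, against 78.8 in control 1 and 73.5 in control 4.

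MYL9 encodes the regulatory light chain of myosin II in smooth muscle. It lies on chromosome 17 from 39788165 to 39795240, inside the model of the lncRNA LOC110257438. Its window held 4 peaks in BRG1 1 and 4 in BRG1 4, against 6 in control 1 and 4 in control 4. The 2 peaks by which control 1 exceeded the rest were weak, at percentiles of 15.5 and 1.9. The region at the lower-coordinate end, 39787940 to 39788639, had percentiles of 67.6 in BRG1 1 and 31.2 in BRG1 4, against 57.7 in control 1 and 53.0 in control 4, with BRG1 4 low and BRG1 1 high. The highest region, 39811237 to 39811861, lay outside the MYL9 model, with its median summit 16169 bp beyond the higher-coordinate end, at percentiles of 78.7 and 75.1 in BRG1 1 and BRG1 4, against 79.2 and 77.7 in control 1 and control 4.

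MYH11 encodes the smooth muscle myosin heavy chain, a marker of mature smooth muscle. It lies on chromosome 3 from 7002667 to 7143093, a model of 140427 bp, and its window held 10 peaks in BRG1 1 and 10 in BRG1 4, against 11 in control 1 and 10 in control 4. Its regions lay mostly in the gene body: of 12 regions, 10 did, and 6 of these were called in every library. The highest by mean over libraries, 7068213 to 7068802, had percentiles of 86.9 in BRG1 1 and 74.8 in BRG1 4, against 81.5 in control 1 and 83.5 in control 4.

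At the lower-coordinate end of MYH11 the region from 7001225 to 7002350 had percentiles of 49.2 in BRG1 1 and 50 in BRG1 4, against 30.5 in control 1 and 38.6 in control 4. A smaller region beside it, 7002498 to 7002752, was called in every library but BRG1 4. No peak was called within 1 kb of the higher-coordinate end in any library. A body region of 1503 bp, 7040811 to 7042313, was 1 peak in each BRG1 library and 2 in each control. Summed without the gap between peaks, widths were 1371 bp in BRG1 1 and 1469 bp in BRG1 4, against 1271 bp in control 1 and 1191 bp in control 4. With the gap, the controls covered much the same stretch, from 7040854 to 7042294 in control 1 and 7040811 to 7042290 in control 4. The peaks ran from 7040818 to 7042188 in BRG1 1 and 7040845 to 7042313 in BRG1 4.

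TPM1 and TPM2 encode tropomyosins, the coiled-coil proteins that lie along the actin filament. Both are on chromosome 1, TPM1 from 108986981 to 109016090 and TPM2 from 236402249 to 236410390. The TPM1 window held 6 peaks in BRG1 1 and 5 in BRG1 4, against 6 in control 1 and 5 in control 4, and that of TPM2 held 8 in each library. The higher-coordinate end of TPM1, 109015518 to 109016462, had percentiles of 85.9 in BRG1 1 and 84.3 in BRG1 4, against 89.6 in control 1 and 90.4 in control 4. At its lower-coordinate end a weak peak was called in BRG1 1 (percentile 17.9) and control 1 (27.4) and in neither BRG1 4 nor control 4. The highest region of the TPM1 window lay outside any gene model, 109027897 to 109028654, at percentiles of 90.1 and 92.2 in BRG1 1 and BRG1 4, against 93.3 and 90.5 in control 1 and control 4.

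The end of TPM2 held the broadest region of all 8 windows, 2382 bp from 236408507 to 236410888 across the higher-coordinate end. It was 3 peaks in BRG1 1 and 2 in BRG1 4, against 3 in control 1 and 3 in control 4, and its highest peak had percentiles of 80.6 and 76.8 in BRG1 1 and BRG1 4, against 81.5 and 82.1 in control 1 and control 4. In BRG1 4, 1 peak of 1773 bp took the place of a pair. In the body of TPM2 the region from 236406231 to 236406819 had percentiles of 75.9 in BRG1 1 and 86.8 in BRG1 4, against 73.2 in control 1 and 71.4 in control 4. In lists of equal length both BRG1 libraries lay above both controls there, at 74.4 in BRG1 1 and 86.8 in BRG1 4, against 68.3 in control 1 and 66.7 in control 4. The highest region of the window lay in the model of CA9, 236395609 to 236396440, at 88.4 in BRG1 1 and 89.1 in BRG1 4, against 91.8 in control 1 and 87.2 in control 4. A region between TPM2 and TLN1, which encodes the integrin-binding protein talin, ranked at 71.0 in BRG1 1 and 45.9 in BRG1 4, against 76.0 in control 1 and 64.2 in control 4.

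VIM encodes vimentin, the intermediate filament protein of mesenchymal cells, and is the 1 gene of the 8 that is no part of the contractile machinery. It lies on chromosome 10 from 43516441 to 43526172 with no other gene model in its window. It held 9 peaks in every library and was the 1 gene whose highest region lay at its own end. That region, 43516293 to 43517891, had percentiles of 94.0 in BRG1 1 and 95.5 in BRG1 4, against 94.4 in control 1 and 95.0 in control 4. Its width was 1484 bp in BRG1 1 and 1599 bp in BRG1 4, against 1216 bp in control 1 and 1215 bp in control 4, so that the groups did not overlap. The authors' fold over the local background was moderate there, at 7.58, 7.17, 7.62 and 8.04 in BRG1 1, BRG1 4, control 1 and control 4.

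On the lower-coordinate side of VIM lay 4 more regions. Of these, 3 were called in every library, and that from 43515010 to 43515318 was missing from BRG1 4 and had percentiles of 60.2 in BRG1 1, 64.9 in control 1 and 70.3 in control 4. A region in the gene body, 43522504 to 43522844, had percentiles of 45.9 in BRG1 1 and 17.5 in BRG1 4, against 63.6 in control 1 and 63.0 in control 4. The region at the higher-coordinate end, 43526882 to 43527399, was weak, with percentiles of 8.6 in BRG1 1 and 16.0 in BRG1 4, against 3.9 in control 1 and 31.3 in control 4. Beyond it, the region from 43527960 to 43528855 had 53.2 in BRG1 1 and 59.2 in BRG1 4, against 33.2 in control 1 and 24.2 in control 4.

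In order of their highest end peak in control 1, the genes ran VIM (94.4), TAGLN (90.9), TPM1 (89.6), TPM2 (81.5), CNN1 (59.3), MYL9 (57.7), MYH11 (30.5) and ACTA2 (16.2). The libraries put TAGLN and TPM1 at 84.0 to 91.5 and 84.3 to 90.4, so that this pair could not be ordered, and CNN1, MYL9 and MYH11 also overlapped. The place of TAGLN rests on a peak that was also less than 1 kb from an end of SIDT2. The second peak there, nearer TAGLN, stood at 72.2 in BRG1 1, 79.1 in control 1 and 80.6 in control 4. Those values were below those of TPM1 and TPM2 in the same libraries. VIM lay above the others in every library, and ACTA2 below them wherever it was called. The median percentile over those of the 8 genes with an end peak was 74.1 in BRG1 1 and 76.8 in BRG1 4 (7 genes there, as ACTA2 had none), against 70.4 in control 1 and 75.0 in control 4. Over all genes with one it was 88.6, 87.5, 89.0 and 88.6 in the same libraries. By the sum of absolute differences over the 4 libraries, with no peak taken as 0, the genes most like ACTA2 were CORT (3.8 percentile points), TLR1 (7.3) and KLHL34 (8.0), and those most like VIM were TRIM59 (0.51), AMD1 (0.65) and PES1 (0.96), out of 14499 genes compared.

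**Figure D3:**
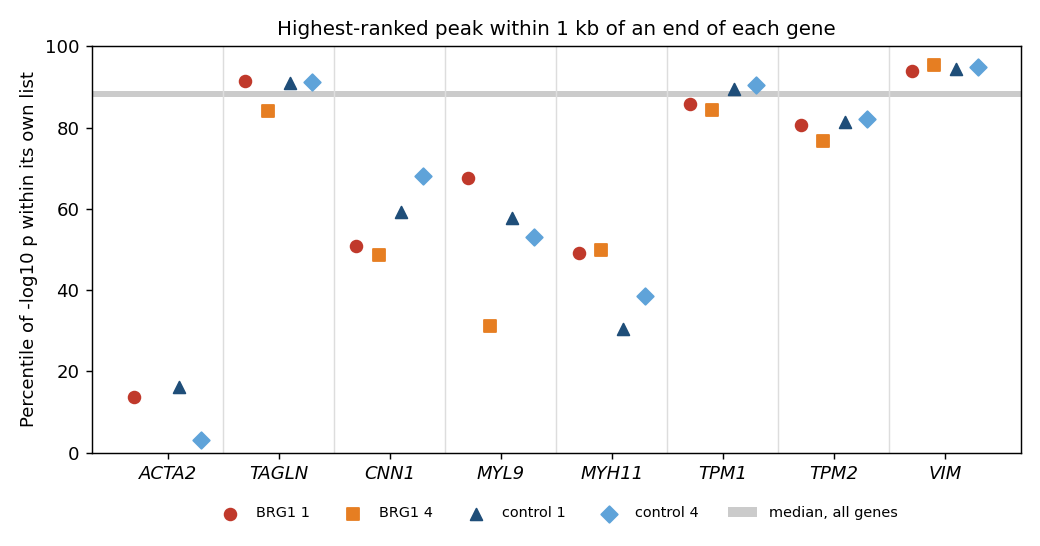
Percentile within its own list (y axis) of the highest peak within 1 kb of an end of each gene (x axis), 1 point a library, BRG1 libraries left of the controls. The grey band spans the 4 libraries' medians over all genes, 87.5 to 89.0. VIM lies above the band in all libraries, and ACTA2 has no point for BRG1 4.

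Ranks were compared between groups in lists of equal length, each limited to the 90851 top-ranked peaks of its own library. Of 39 regions present in all 4 lists, 9 (23.1%) ranked lower in both BRG1 libraries than in both controls, against 18.3% of all regions, and 6 (15.4%) ranked higher, against 19.5%. These shares were near those of the whole genome. The ACTA2 body region stood at percentiles of 1.1 in BRG1 1 and 13.0 in BRG1 4, against 44.9 in control 1 and 31.9 in control 4. The control ranks there belong to the stronger control peak, whose summit lay apart from the summits of the BRG1 libraries. In the opposite direction, the region from 43527960 to 43528855 at VIM stood at 50.4 in BRG1 1 and 59.2 in BRG1 4, against 21.0 in control 1 and 11.5 in control 4.

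Regions of both directions lay in the windows of VIM, MYL9, MYH11 and CNN1. At VIM the body region ranked lower in BRG1 while that beyond the higher-coordinate end ranked higher, and at MYL9 a body region ranked higher while one beyond the higher-coordinate end ranked lower. Of the end regions, those of CNN1 and TPM1 ranked lower in both BRG1 libraries and that of MYH11 ranked higher. At MYH11 the summit of BRG1 1 lay at 7001514, against 7001967 to 7001987 in the other libraries. Without BRG1 1, BRG1 4, control 1 or control 4, the counts were 19, 15, 14 and 13 lower and 15, 16, 13 and 11 higher, since fewer libraries had to be in order.

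**Figure D4:**
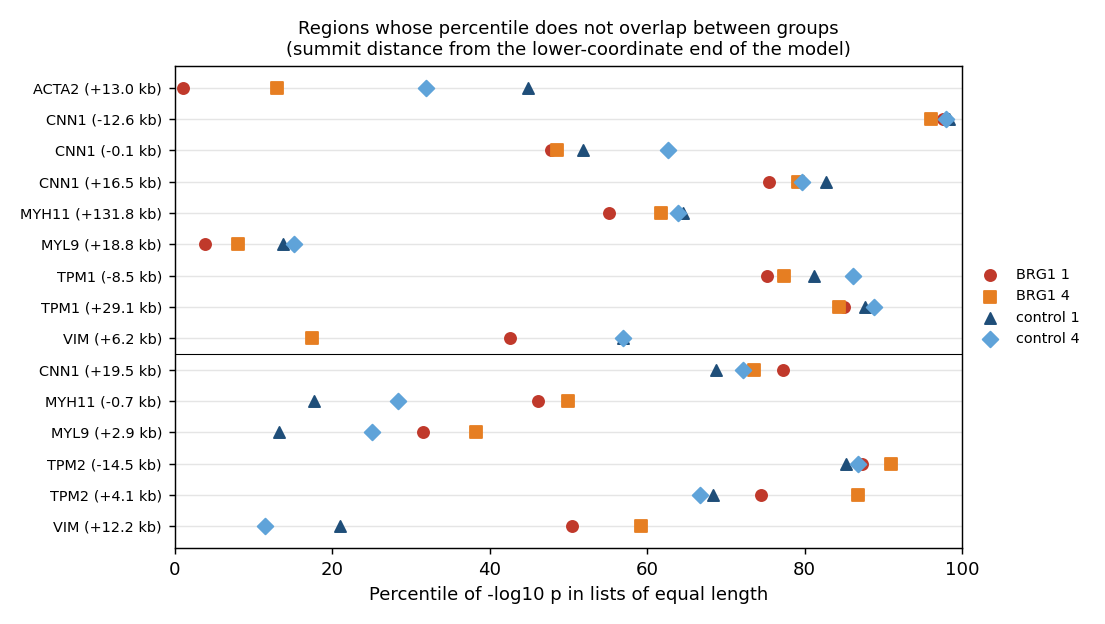
Percentile in lists of equal length (x axis) of the 15 regions whose BRG1 and control libraries do not overlap, 1 row a region, named by gene and by the distance in kb of its summit from the lower-coordinate end of the model. The 9 rows above the line rank lower in BRG1, the 6 below it higher. The widest gap is at VIM (50.4 and 59.2 in BRG1, against 21.0 and 11.5 in control libraries), followed by ACTA2. At ACTA2 the summits of the BRG1 and control libraries lay at different places.

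The shared regions were wider in BRG1 4. Widths were compared as the sum over a library's peaks in a region, without the gaps between peaks. The median width of the 40 regions was 614 bp in BRG1 1 and 764 bp in BRG1 4, against 589.5 bp in control 1 and 628 bp in control 4. The median ratio to control 1 was 0.985 in BRG1 1, 1.19 in BRG1 4 and 0.990 in control 4, and over all regions it was 0.966, 1.08 and 0.985. BRG1 4 was the widest of the 4 in 25 of 40 regions (62.5%), against 51.8% of all shared regions. Both BRG1 libraries were wider than both controls in 8 regions (20%, against 18.9% of all), of which 2 each lay at TPM1, TAGLN and VIM and 1 each at MYL9 and MYH11. Taken from first peak start to last peak end, this order was not kept at TAGLN, MYL9 and MYH11, where control peaks were split. Both BRG1 libraries were narrower in 1 region (2.50%, against 14.3%), at VIM from 43514201 to 43514528. Without BRG1 4 the counts were 12 wider and 16 narrower, and without BRG1 1 they were 27 and 6. Without control 1 they were 15 and 6, and without control 4 they were 14 and 8.

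**Figure D5:**
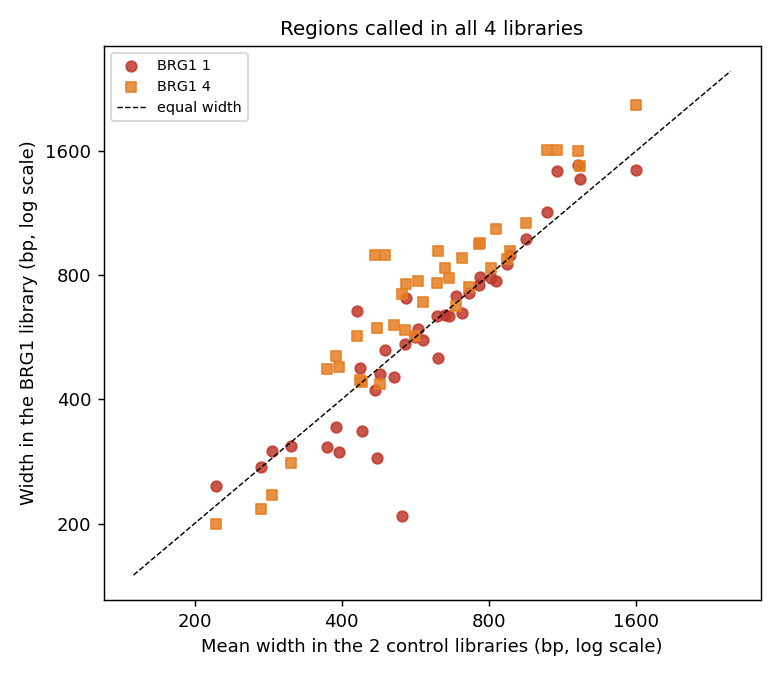
Width in bp in each BRG1 library (y axis) against the mean width of the 2 control libraries (x axis) for the 40 regions called in all 4 libraries, both on log scales, with the dashed line at equal width. Width is summed over a library's peaks in the region, without the gaps between them. Points of BRG1 4 lie mostly above the line and those of BRG1 1 around it, with medians of 764 bp and 614 bp.

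The other genes of the contractile and actin programme were counted next. The list held 59 genes, of which 57 matched the gene table (MYL12A and MYL12B did not). An end peak was called in every library at 44 of them (77.2%, against 68.2% of all genes). At 10 of the 57 none was called in any library, and over all genes that share was 25.8%. Those 10 were MKL1, CSRP2, ACTG2, CALD1, TPM3, TPM4, FLNA, PALLD, TNS1 and KCNMB1. Their windows were not empty: CALD1, which encodes caldesmon, held 24 peaks in BRG1 1 and 26 in BRG1 4, against 28 in control 1 and 26 in control 4, so that its peaks lay away from the ends of the model. ACTG2, the gamma-actin of smooth muscle, held 4 and 3 peaks in BRG1 1 and BRG1 4, against 5 and 5 in control 1 and control 4.

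The regulators differed in rank. SRF, the transcription factor of the programme, stood at end-peak percentiles of 97.5 in BRG1 1 and 95.5 in BRG1 4, against 98.3 in control 1 and 97.8 in control 4. Its co-activator MYOCD stood at 84.1 and 71.6 in BRG1 1 and BRG1 4, against 83.7 and 84.3 in control 1 and control 4. The co-activator genes MKL1 and MKL2, also called MRTFA and MRTFB, had little at their ends: MKL1 had no end peak and MKL2 had one in control 1 alone, at percentile 2.1. FHL2, a LIM-domain cofactor, had one in all but control 4, at 0.5 in BRG1 1 and 12.1 in BRG1 4, against 12.1 in control 1. FLNC, a filamin, had one in all but BRG1 4, at 12.7 in BRG1 1, against 11.5 in control 1 and 20.3 in control 4.

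Some cytoskeletal genes that non-muscle cells also use ranked above all 8 genes in every library. MYH10, a non-muscle myosin heavy chain, stood at 99.1 in BRG1 1 and 99.2 in BRG1 4, against 99.0 in control 1 and 98.7 in control 4. VCL, which encodes vinculin of focal adhesions, stood at 99.4 and 98.6 in BRG1 1 and BRG1 4, against 99.2 and 99.4 in control 1 and control 4. DES, the intermediate filament of muscle, stood low at 17.8 and 29.6 in BRG1 1 and BRG1 4, against 11.2 and 27.0 in control 1 and control 4. The median over the list was 89.4 in BRG1 1 and 89.2 in BRG1 4, against 91.0 in control 1 and 90.6 in control 4.

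Window counts of these 57 genes were lower in both BRG1 libraries at 21 (36.8%, against 19.0% of all windows) and higher at 2, DES and PDLIM5 (3.51%, against 1.29%). The median window of the list held 9.0 peaks, against 5 over all genes, and the part of window density in these counts was not tested. With lists of equal length the counts were 5 lower (8.77%, against 7%) and 6 higher (10.5%, against 5.81%), so that the excess of lower windows was not kept. Without BRG1 1, BRG1 4, control 1 or control 4 the lower windows numbered 32, 24, 30 and 29, and the higher windows 2, 5, 2 and 3.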

How the data were processed

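The members of the gene set, the gene lists and most settings were chosen with earlier results of these data known. Each library came with its own narrowPeak list, deposited by the authors. The submitters' processing notes name MACS2, SAMtools, Bowtie, BWA and FastQC without versions or roles, and the pig build Sscrofa11.1. The fold, a ratio of summit pileup to background within a library, was deposited by the authors. The −log10 p-value and q-value (lowest −log10 q 1.31 to 1.35) were computed by the authors' caller and deposited per peak. The score, deposited by the authors, is 10 times the −log10 q, cut to a whole number. The summit offset in bp was also deposited by the authors. All were used only within their own list. Duplicate removal, the shift for Tn5 and the caller's settings, not given in the sources used, can change peak number and width.

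Peaks were merged into regions at an overlap of 1 bp. Gene positions came from RefSeq, used here without strand, exons or transcripts, so lower- and higher-coordinate ends stand in for starts. Exonic and UTR positions were not assigned. Means of the groups were set against each other with exact two-sided permutation tests (Python 3.11.15, numpy 2.4.6, pandas 2.3.3). Relative depth came from the background that fold and p-value imply. Absolute depth is unknown and no counting interval was computed. A missing peak means not called at that depth. Counting was tested on simulated lists.

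All 8 genes were named, with their gene-end regions, the highest region, neighbours, and pathway genes called in some or no libraries. Other regions and pathway genes were picked with their values in view. The rank and width orders were added after seeing the data. Some marker genes, and the counts over the immune and the melanocyte and glial lists that hold them, are not reported here.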

Additional observations from a re-analysis of the deposited data

How the results depend on the processing

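The ratio of peak numbers in the windows was below 1 (0.857 to 0.990) under every setting run for it. At 0.990, with lists of equal length, the groups overlapped, so that the order of the libraries was not kept. The ratio of length under peaks was above 1 (1.003 to 1.23) under every setting run for it. The difference in peaks per 10000 turned to −0.0706 with a −log10 q of at least 5, to −0.0550 with lists of equal length, and to −0.0597, −0.0377 and −0.0969 with flanks of 0, 5 and 50 kb. Those flanks, which change the number of regions by construction, gave 18, 26 and 78 regions in all libraries. A region called in both BRG1 libraries alone appeared once when peaks had to cover at least 50% of a region, a setting added after seeing the data (1 region). Regions called in both controls alone numbered 1 with a −log10 q of at least 5 and 2 with flanks of 50 kb. Leaving out each library gave 0 to 6 and 2 to 5. An overlap of 50% of the shorter interval changes nothing by construction, as each peak lies inside its region. A window restricted to gene starts was not run, since strand was not used here. Gene ends of 3 kb gave 8 of 8 genes and 52 of 57 pathway genes. With a replicate block on the library number, the ratio of peak number was 0.906, that of length 1.11 and the difference 0.182. Exact sign-flip tests of these gave p = 0.50, p = 1.00 and p = 0.50, and 0.50 is the lowest value 2 pairs allow. Deviations of same-numbered libraries correlated at −0.0100 over regions, so the numbers were not taken as pairs. Absolute depth is unknown.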

Other observations

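Several of the highest regions in the windows lay at the ends of neighbouring genes. Those at ECSIT beside CNN1 and at SIDT2 beside TAGLN were the highest of their windows, with mean percentiles of 97.6 and 94.5 over the 4 libraries. A region at ARHGEF39 beside TPM2 had percentiles of 88.0 in BRG1 1 and 91.0 in BRG1 4, against 87.5 in control 1 and 88.7 in control 4. At ELOF1, beside CNN1, they were 76.8 in BRG1 1 and 79.1 in BRG1 4, against 85.4 in control 1 and 82.6 in control 4. Of the 33 regions more than 1 kb outside the 8 gene models, 16 overlapped another gene model, so a count per window is not a count per gene. Other protein-coding models that reached into the windows were STAMBPL1 beside ACTA2, PCSK7 beside TAGLN, DLGAP4 beside MYL9, FOPNL and NDE1 beside MYH11, and CCDC107 beside TPM2. The lncRNA models were LOC110259346 beside CNN1, LOC110257438 around MYL9, LOC110259859 in MYH11, LOC110260973 beside TPM1 and LOC106509199 beside TPM2.

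The end of ACP5, which encodes an acid phosphatase of osteoclasts and macrophages, held 3 small regions near each other in the CNN1 window. That from 70208475 to 70208884 was called in BRG1 1, BRG1 4 and control 1. That from 70209102 to 70209317 was called in BRG1 4 alone, and that from 70209351 to 70209686 in control 4 alone. All had percentiles of at most 9.7.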
